A study of Mus musculus with 6 samples.

Results

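Adrenomedullin signalling was followed in the pregnant mouse uterus through the 5 genes of the peptide and its receptor: Adm, Calcrl, Ramp1, Ramp2 and Ramp3. The members were the probe sets that the platform annotation assigns to 1 of these genes alone, which gave 10 of the 45037 probe sets measured and 5 of the 18193 genes that have a probe set of their own. These genes were chosen with the difference between the genotypes known, from the same intensities that are given here. The values of the members are therefore a description, with no p-value, and calls among them are only counted and not read as a test.

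Whole uteri were taken at 3.5 dpc, days post coitum counted from the mating plug, and total RNA was hybridised to Affymetrix mouse expression arrays, with 3 arrays of Arid1a f/f mice and 3 of Arid1a d/d mice. Both genotypes carry floxed alleles of Arid1a, the gene of a DNA-binding subunit of SWI/SNF chromatin remodelers. Arid1a d/d mice are Pgr cre/+ Arid1a f/f, so Cre made from the Pgr locus deletes Arid1a in cells that express PGR, and other uterine cells keep it. By the genotypes given, Arid1a f/f mice carry no Cre, and no array came from mice with Cre alone, so loss of Arid1a and the Pgr cre allele cannot be told apart. Females had been mated with C57BL/6 males, and the sources used here give no age for the mice behind the arrays. Nothing in the labels says that the samples were separate mice, so p-values cover only the spread among these arrays, which may be technical. The comparison asks which uterine transcripts depend on Arid1a just before implantation.

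Adrenomedullin is a secreted vasodilator peptide, encoded by Adm, that acts on blood and lymphatic vessels and is also made by the uterine epithelium. Its receptor is a pair of proteins: CALCRL, a class B G protein-coupled receptor, reaches the cell surface only together with a receptor activity-modifying protein, or RAMP. With RAMP1 it binds calcitonin gene-related peptide, and with RAMP2 or RAMP3 it binds adrenomedullin, so the RAMP a cell makes sets the ligand it answers to. RAMP2 and CALCRL are best known in endothelium, and Ramp3 is known as an estrogen-responsive gene. Following these roles, Adm and Ramp3 were set beside epithelial markers and Calcrl and Ramp2 beside endothelial and lymphatic endothelial markers, while Ramp1 was placed with neither. Which uterine cells made these transcripts was not tested.

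Arid1a itself was lower on each Arid1a d/d array, at 54.0 ± 3.61 (SD, n = 3) against 91.4 ± 10.9 (SD, n = 3) in controls (log2 difference -0.76, standard error 0.12, adjusted p = 0.0120, limma). Whether its probes fall within the deleted exons is not known here. Arid1a d/d replicate 2 stood apart from the other arrays of its genotype: it had the highest Ramp3 intensity, the lowest Ramp1 intensity and the highest summed intensity of the epithelial markers, 2526. The Ramp3 and Ramp1 differences and the epithelial values that it moves most are given below without it too. The median intensity of an array was 3.05 to 3.17. The values are linear RMA intensities with no detection calls, so an intensity near or below the median of all values, 3.12, cannot be told from background, and the level of 1 probe set cannot be set against that of another.

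The promoters of the members at the ends of the range, Ramp3 and Ramp1, and that of the ligand, Adm, are shown first, each as the 250 bases before its start site, 5′ to 3′, from RefSeq on build GRCm38.p6. The Ramp3 promoter lies at chr11:6658283-6658532 on the plus strand, and its last bases are inside the gene as the RefSeq gene table gives it, chr11:6658506-6677478. The Ramp1 promoter lies at chr1:91179572-91179821 on the plus strand, before the gene at chr1:91179822-91225196, and the Adm promoter at chr7:110627407-110627656 on the plus strand, before the gene at chr7:110627657-110629820. Capitals mark matches on either strand to GGGCGG, the box of SP and KLF factors, or to GGTCA, the short core of the estrogen response element.
Ramp3: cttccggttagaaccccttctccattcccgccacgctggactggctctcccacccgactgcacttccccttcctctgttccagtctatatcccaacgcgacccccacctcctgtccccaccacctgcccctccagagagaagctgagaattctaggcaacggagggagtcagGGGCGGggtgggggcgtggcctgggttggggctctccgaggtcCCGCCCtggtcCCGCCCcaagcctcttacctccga
Ramp1: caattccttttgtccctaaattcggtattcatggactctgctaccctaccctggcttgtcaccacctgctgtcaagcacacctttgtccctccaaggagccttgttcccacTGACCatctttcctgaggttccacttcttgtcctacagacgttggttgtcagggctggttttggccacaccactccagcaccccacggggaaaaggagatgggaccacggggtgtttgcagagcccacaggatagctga
Adm: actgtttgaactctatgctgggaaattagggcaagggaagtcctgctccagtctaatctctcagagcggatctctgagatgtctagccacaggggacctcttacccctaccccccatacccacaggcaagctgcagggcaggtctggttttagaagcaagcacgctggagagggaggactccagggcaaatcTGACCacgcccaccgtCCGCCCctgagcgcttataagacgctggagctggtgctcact

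Ramp3 held 3 matches to GGGCGG, which start 78, 35 and 24 bases before the start site, Adm held 1 and Ramp1 held 0. This motif was in 32.7% of the 32851 RefSeq promoters searched over the same 250 bases. GGTCA was found 1 time in Adm, 58 bases before the start site, 1 time in Ramp1, 139 bases before it, and 0 times in Ramp3, against 35.2% of all promoters. The full palindromic estrogen response element, which contains the core, was in 0.0639% of promoters and in none of the members'. ACGTG, a form of the core bound by hypoxia-inducible factors, was in 16.6% of promoters and in none of the members'. Other forms of that core were not searched, so their absence from these promoters is not shown. Calcrl, at chr2:84330626-84425405, held 1 match to GGGCGG and 0 to the others. Its window, chr2:84425267-84425516 on the minus strand, lies partly inside the gene as that table gives it. The match, which starts 83 bases before the start site, is in that part. The G and C content of the windows was 65.2% for Ramp3, 56.8% for Adm, 54.0% for Ramp1 and 48.4% for Calcrl. Ramp2, at chr11:101246334-101248250, had no entry in the promoter table. A match is a run of letters and not a measured site.

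The members differed from each other in how they stood in Arid1a d/d mice. Ramp3 was higher on each Arid1a d/d array than on any Arid1a f/f array, and so, by far less, was the brightest probe set of Adm. Ramp1 and Ramp2 were lower on each Arid1a d/d array. Calcrl, the receptor that they all serve, had overlapping values. Over the 10 probe sets, 2 were higher on each Arid1a d/d array, against 11.0% of all probe sets, 3 were lower on each, against 11.5%, and 5 overlapped. In limma 1 of the 10 was past an adjusted p of 0.05 in the higher direction, that of Ramp3, against 2.42% of all probe sets, and 1 in the lower direction, the brightest of Ramp1, against 2.35%, and over both directions the share of all probe sets was 4.77%. Of 6 fits that left out an array, Ramp3 was past the threshold in 6. Ramp1 was past it in 2, those without Arid1a d/d replicate 1 or 2. Because the members were chosen on this contrast, nothing is read from these counts.

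**Figure D1:**
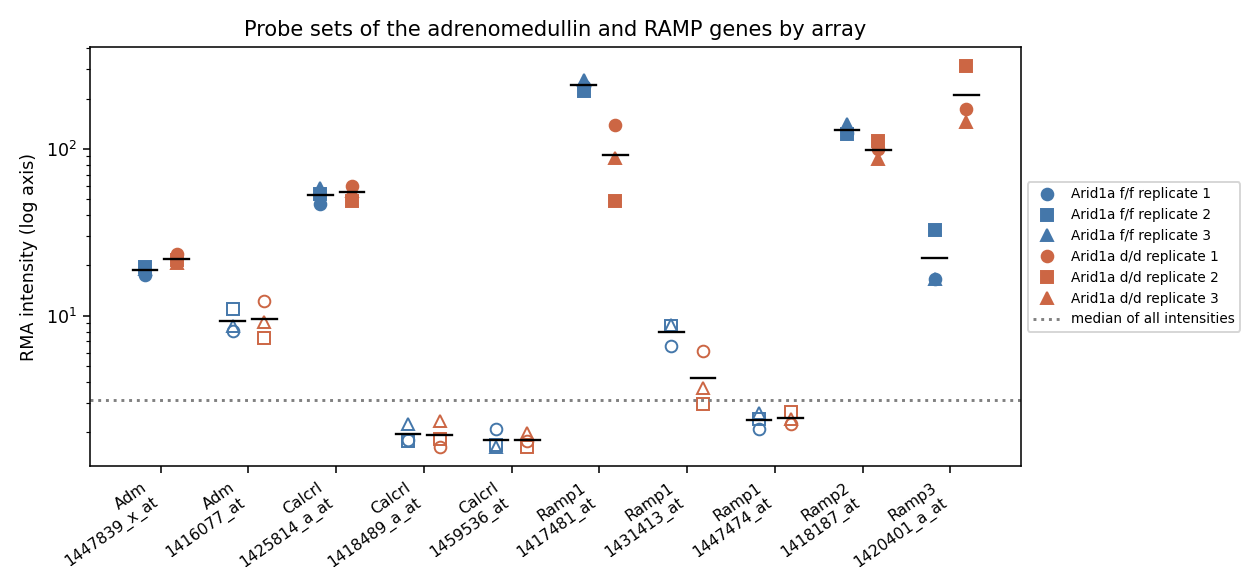
RMA intensity (log axis) of the 10 probe sets of the members on each of the 6 arrays. Blue symbols are Arid1a f/f and red symbols Arid1a d/d arrays, filled symbols mark the brightest probe set of each gene, short lines are arithmetic means and the dotted line is the median of all intensities, 3.12. The Ramp3 symbols of the genotypes are separated, from 16.6 to 32.7 against 145.1 to 312, while those of Calcrl are mixed.

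Adm, the gene of the peptide, was measured by 2 probe sets that disagree. On the brighter, 1447839_x_at, the Arid1a f/f arrays gave 17.5, 19.6 and 19.0 and the Arid1a d/d arrays 23.5, 21.5 and 20.8 for replicates 1, 2 and 3. The highest Arid1a f/f value lay just below the lowest Arid1a d/d value. The means were 18.7 ± 1.08 (SD, n = 3) and 21.9 ± 1.43 (SD, n = 3), a log2 difference of 0.23 (standard error 0.10). On the other, 1416077_at, the arrays gave 8.13, 10.9 and 8.69 against 12.3, 7.36 and 9.18. Here the genotypes overlapped, with both the highest and the lowest value on Arid1a d/d arrays, and the log2 difference was 0.036 (standard error 0.19). The suffix of the brighter probe set marks probes that can also bind other transcripts, so the higher value of Adm rests on the less specific probe set.

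Calcrl, which encodes the receptor shared by both peptides, was level between the genotypes within the spread of the arrays. Its brightest probe set, 1425814_a_at, gave 46.9, 53.6 and 57.9 on the Arid1a f/f arrays and 59.6, 48.5 and 56.2 on the Arid1a d/d arrays. The lowest of all 6 values was on an Arid1a f/f array and the highest on an Arid1a d/d array, and the values between them were mixed. The means were 52.8 ± 5.53 (SD, n = 3) and 54.8 ± 5.65 (SD, n = 3), a log2 difference of 0.053 (standard error 0.12). Leaving out 1 array at a time gave -0.03 (without Arid1a f/f replicate 1) to 0.14 (without Arid1a d/d replicate 2). The other probe sets of Calcrl, 1418489_a_at and 1459536_at, had means of 1.79 to 1.94 in both genotypes, under the median of all intensities, and log2 differences of -0.016 and 0.0014.

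Ramp3, which makes CALCRL an adrenomedullin receptor and takes part in its recycling, had the largest difference of the members. Its probe set, 1420401_a_at, gave 16.6, 32.7 and 16.7 on the Arid1a f/f arrays and 172.4, 312 and 145.1 on the Arid1a d/d arrays. Replicate 2 was the highest array within each genotype, and the lowest Arid1a d/d value was still more than 4 times the highest Arid1a f/f value. The means were 22.0 ± 9.29 (SD, n = 3) and 209.7 ± 89.4 (SD, n = 3), a log2 difference of 3.25 (standard error 0.33), or 9.51-fold. Without Arid1a d/d replicate 2 the log2 difference was 2.92, and without any 1 of the 6 arrays it lay between 2.92 and 3.58.

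Ramp1, which turns CALCRL into the receptor for calcitonin gene-related peptide, was lower in Arid1a d/d mice on its 2 brighter probe sets. The brightest, 1417481_at, gave 237, 223 and 259 on the Arid1a f/f arrays and 139.5, 48.9 and 87.7 on the Arid1a d/d arrays. The Arid1a f/f arrays lay close together, and the Arid1a d/d arrays were spread, with replicate 2 the lowest. The means were 239.5 ± 18.4 (SD, n = 3) and 92.0 ± 45.5 (SD, n = 3), a log2 difference of -1.50 (standard error 0.31), or 2.84-fold lower. Without Arid1a d/d replicate 2 the log2 difference was -1.11, and without Arid1a d/d replicate 1 it was -1.87. The second probe set, 1431413_at, gave 6.53, 8.71 and 8.82 against 6.13, 2.93 and 3.67, in the same order of Arid1a d/d arrays, with a log2 difference of -0.98 (standard error 0.25). The third, 1447474_at, was under the median of all intensities on each array, from 2.10 to 2.64, and its log2 difference was 0.040.

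Ramp2, which forms the main adrenomedullin receptor of endothelium with CALCRL, was modestly lower. Its probe set, 1418187_at, gave 124.5, 122 and 139.8 on the Arid1a f/f arrays and 99.5, 110.6 and 86.8 on the Arid1a d/d arrays. The groups did not overlap, and Arid1a d/d replicate 2 was here the array nearest to Arid1a f/f. The means were 128.8 ± 9.60 (SD, n = 3) and 99.0 ± 11.9 (SD, n = 3), a log2 difference of -0.38 (standard error 0.12), or 1.31-fold lower. In order of their log2 differences the members ran from Ramp3 through Adm, Calcrl and Ramp2 to Ramp1. Adm and Calcrl, neighbours in that order, differed by less than the sum of their standard errors, and the other neighbours by more. The median log2 difference over all 18193 genes was -0.019.

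The markers of the cell types of the uterus also differed between the genotypes, and the members are given beside them. Of 14 endothelial markers 13 were lower in Arid1a d/d mice at an adjusted p under 0.05 and 0 higher, with a median log2 difference of -0.94 and a summed intensity of 304 to 372 in Arid1a d/d against 679 to 706 in Arid1a f/f uteri. Over all genes, limma called 4.07% lower and 3.37% higher. The 2 brightest past the test were the endothelial adhesion molecule gene Esam (log2 difference -1.32, adjusted p = 0.00100) and Egfl7, which encodes a protein secreted by endothelium (log2 difference -0.99, adjusted p = 0.00360). The marker that did not pass was Cldn5 (log2 difference -0.53, adjusted p = 0.0974). At an unadjusted p under 0.05 all 14 were lower. The endothelial count was 6 without Arid1a f/f replicate 3 and 7 when either replicate 2 of Arid1a f/f or replicate 3 of Arid1a d/d was left out. No marker was at 0, since the lowest intensity in the table is 1.29. In whole tissue, fewer cells of a type and less RNA per cell cannot be told apart.

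Of 13 epithelial markers measured, limma called 2 higher and 0 lower (9 and 0 at an unadjusted p under 0.05), with a median log2 difference of 0.77 and a summed intensity of 1261 to 2526 in Arid1a d/d against 1193 to 1275 in Arid1a f/f uteri. They were the E-cadherin gene Cdh1 (log2 difference 0.92, adjusted p = 0.0119) and Wnt7a, a signalling gene of the luminal epithelium (log2 difference 1.07, adjusted p = 0.0340). Wnt7a lost its call in 4 of 6 fits that left out an array (any Arid1a f/f array or Arid1a d/d replicate 1), another of its probe sets had -0.20, and Cdh1 was not called without replicate 2 of Arid1a f/f. Not all of the list lay above 0: Cldn3 had a log2 difference of -0.39 (adjusted p = 0.385) and Cldn4 -0.16 (adjusted p = 0.680). The ranges of the summed epithelial intensity overlapped between the genotypes, and its highest value was that of Arid1a d/d replicate 2, the array with the highest Ramp3 intensity. Without that array the highest Arid1a d/d sum was 1705 and the median log2 difference was 0.39.

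Of 5 lymphatic endothelial markers measured, limma called 1 lower, the podoplanin gene Pdpn (log2 difference -1.39, adjusted p = 0.00468), and 0 higher, with a median of -0.38 and summed intensities of 121.8 to 168.8 in Arid1a f/f and 84.0 to 131.6 in Arid1a d/d mice. At an unadjusted p under 0.05 these counts were 3 and 1. Lyve1, the hyaluronan receptor gene of lymphatic vessels, had a log2 difference of 0.83 (adjusted p = 0.126), and Prox1, which defines the lineage, had a mean intensity under the median of all values in both genotypes. Of 10 stromal fibroblast markers 3 were lower (Dcn -1.06, adjusted p = 0.0180; Vim -0.93, adjusted p = 0.0200; Thy1 -0.89, adjusted p = 0.0177), with summed intensities of 7753 to 8610 in Arid1a f/f and 5387 to 6529 in Arid1a d/d mice. At an unadjusted p under 0.05, 7 were lower. The stromal count fell to 0 without replicate 2 of Arid1a f/f, and to 1 without its replicate 1 (Dcn) or without replicate 2 of Arid1a d/d (Vim). Of 8 leukocyte markers 3 were lower (Ptprc -0.80, adjusted p = 0.0320; Nkg7 -0.99, adjusted p = 0.0285; Itgax -0.86, adjusted p = 0.00748), with summed intensities of 347 to 459 and 241 to 286. At an unadjusted p under 0.05 the leukocyte counts were 5 lower and 1 higher. Another probe set of Ptprc had -0.021, and the mean of its probe sets, -0.41, did not pass. Itgax kept its call whichever array was left out and was the only one called without any 1 of the Arid1a f/f arrays. Of 8 smooth muscle markers 1 was lower, the desmin gene Des (log2 difference -0.64, adjusted p = 0.0313), whose other probe set had 0.35 and which lost its call whichever array was left out, except for Arid1a d/d replicate 1. At an unadjusted p under 0.05, 4 smooth muscle markers were lower and 0 higher. The summed smooth muscle intensity overlapped, with 6268 to 7130 in Arid1a f/f and 5777 to 6840 in Arid1a d/d mice. The part of any of these markers in the values of the members was not tested.

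**Figure D2:**
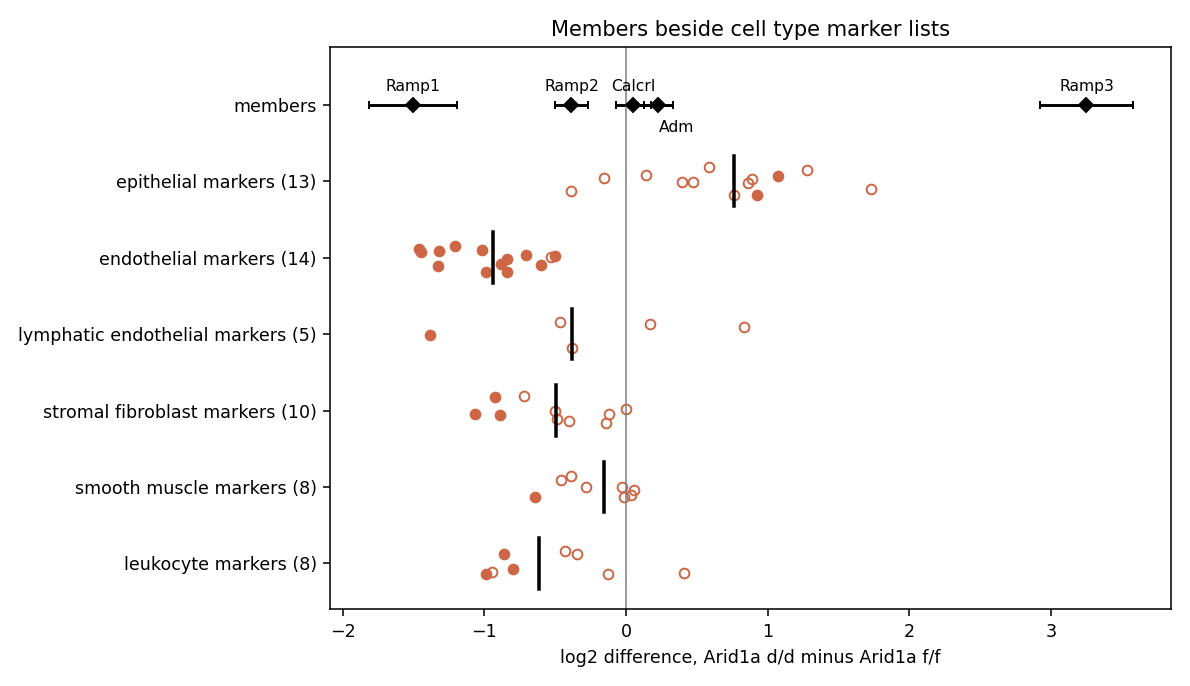
Log2 difference, Arid1a d/d minus Arid1a f/f, of the brightest probe set of each member (diamonds, with bars of 1 standard error) and of the genes of 6 cell type marker lists (circles, with the number measured). Filled circles passed an adjusted p of 0.05 in limma and vertical lines are list medians. Ramp3 at 3.25 lies to the right of all markers shown, Calcrl and Adm near 0, and the endothelial markers at a median of -0.94.

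Set against the endothelial markers, the members other than Ramp1 lay above each Arid1a f/f array in Arid1a d/d mice. For each array the mean log2 intensity of the 14 markers was taken from that of the member, and the values were centred on the Arid1a f/f mean. Calcrl was then at 1.04, 1.06 and 0.99 on Arid1a d/d replicates 1, 2 and 3, or 1.03 ± 0.034 (SD, n = 3), with an SD of 0.14 among the Arid1a f/f arrays. Ramp2 was at 0.49, 0.96 and 0.33, or 0.59 ± 0.33 (SD, n = 3). Adm was at 1.21 ± 0.17 (SD, n = 3) and Ramp3 at 4.23 ± 0.74 (SD, n = 3), so a value above the controls by this measure was not particular to Calcrl and Ramp2. The mean of the markers was itself at -0.98 ± 0.17 (SD, n = 3), with an SD of 0.037 among the Arid1a f/f arrays. The median log2 difference over all genes was -0.019, so a gene level between the genotypes can also lie above the controls by this measure. How many of all genes do so was not counted, and nothing particular to the members is read from it. Calcrl lay above each control array against the stromal markers too (0.58 ± 0.024, SD, n = 3). Against the smooth muscle markers Calcrl was at 0.27 ± 0.064 (SD, n = 3), and the groups nearly touched. Its lowest Arid1a d/d value was 0.219 and its highest Arid1a f/f value 0.198, with an SD of 0.29 among the Arid1a f/f arrays. Ramp2 overlapped against both, at 0.14 ± 0.27 and -0.17 ± 0.25 (SD, n = 3 each). Against the epithelial markers Calcrl was at -0.61 ± 0.69 (SD, n = 3) and overlapped. Ramp2 was there at -1.04 ± 0.45 (SD, n = 3), below each Arid1a f/f array. Against the lymphatic markers Calcrl was at 0.30 ± 0.063 (SD, n = 3), and the groups again nearly touched. Its lowest Arid1a d/d value was 0.227 and its highest Arid1a f/f value 0.223, with an SD of 0.20 among the Arid1a f/f arrays. Ramp2 was there at -0.14 ± 0.31 (SD, n = 3) and overlapped. Ramp1 against the endothelial markers was at 0.079, -1.11 and -0.55, which overlapped the Arid1a f/f arrays.

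Set against the 13 epithelial markers in the same way, Ramp3 was at 2.86, 2.66 and 2.26 on Arid1a d/d replicates 1, 2 and 3, or 2.59 ± 0.30 (SD, n = 3). Replicate 2, the highest by intensity, was no longer the highest by this measure, because the mean of the epithelial markers on that array was 1.25 above Arid1a f/f, against 0.19 and 0.54 on the others. Adm was at 0.14, -1.04 and -0.39, or -0.43 ± 0.59 (SD, n = 3), and overlapped the Arid1a f/f arrays. Without replicate 2 the means were 2.56 for Ramp3 and -0.12 for Adm. The members set beside the epithelial markers therefore parted by this measure: Ramp3 remained above each Arid1a f/f array, and Adm did not. Ramp1 was below each Arid1a f/f array when set against the epithelial markers (-2.16 ± 1.29, SD, n = 3, and -1.48 without replicate 2), the stromal markers (-0.98 ± 0.63, SD, n = 3) and the smooth muscle markers (-1.29 ± 0.63, SD, n = 3).

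**Figure D3:**
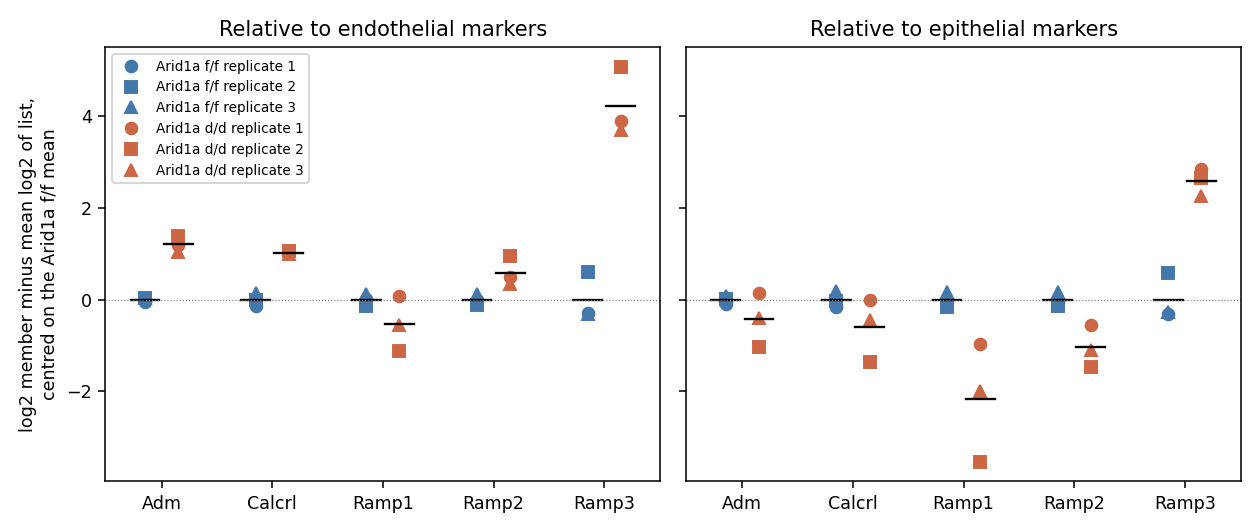
Log2 intensity of each member minus the mean log2 intensity of the endothelial (left) or epithelial (right) markers on the same array, centred on the Arid1a f/f mean. Symbols are single arrays and short lines are means. On the left the Arid1a d/d symbols of Calcrl fall together at 1.03 ± 0.034 (SD, n = 3), and on the right those of Ramp3 lie at 2.26 to 2.86, above all Arid1a f/f symbols.

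The other genes of the pathway were read from 6 lists that leave the members out. Of 61 measured genes of 63, 1 was higher in Arid1a d/d mice and 9 were lower at an adjusted p under 0.05, and 51 were not called. The median log2 difference was -0.09. Over all genes the shares called were 3.37% higher and 4.07% lower. Leaving out Arid1a f/f replicate 2 or 3 gave 5 lower genes, 6 were lower without replicate 1 of Arid1a f/f or without replicate 2 of Arid1a d/d, and the count of higher genes was 0 without any 1 of the controls or without the third Arid1a d/d array. In 9 of the 61 genes the mean intensity lay under the median of all values.

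Among ligands and the enzymes that process them, 2 of 9 measured genes were lower and 0 higher in limma, and 3 and 0 at an unadjusted p under 0.05. Cpe, which encodes the peptide-processing enzyme carboxypeptidase E, fell from 580.9 ± 71.5 to 331.2 ± 32.7 (SD, n = 3 each, log2 difference -0.81, adjusted p = 0.0122), and was not called without replicate 2 or 3 of Arid1a f/f. Ece1, the gene of endothelin-converting enzyme 1, fell from 63.9 ± 3.83 to 40.0 ± 1.44 (SD, n = 3 each, log2 difference -0.67, adjusted p = 0.00939) and was called whichever array was left out. For both genes another probe set went the other way, with 0.037 for Cpe and 0.086 for Ece1, and the means of their probe sets, -0.39 and -0.22, did not pass. Adm2, the gene of the related peptide intermedin, had a log2 difference of -0.16 (adjusted p = 0.433), at intensities of 3.16 to 3.94, and Pam, whose enzyme amidates adrenomedullin into its active form, had 0.21 (adjusted p = 0.630). Calca, the gene of calcitonin gene-related peptide, had no probe set of its own in the annotation used here.

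No other receptor was called. Of 4 other receptors of these peptides and of 9 further receptors that can bind a RAMP, 0 passed in either direction in limma, and 0 at an unadjusted p under 0.05. Ackr3, the decoy receptor that takes up adrenomedullin, had a log2 difference of -0.09 (adjusted p = 0.912, and 0.16 without Arid1a f/f replicate 2), with 41.5 to 78.2 on the Arid1a d/d arrays inside the 48.2 to 84.4 of the Arid1a f/f arrays but for the lowest value. Calcr, the calcitonin receptor gene (-0.15, adjusted p = 0.629), and Vipr1, a receptor gene for vasoactive intestinal peptide (-0.34, adjusted p = 0.320), had mean intensities under the median of all values. Gper1, which encodes a membrane estrogen receptor, had a log2 difference of 0.054 (adjusted p = 0.847).

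In signalling and receptor trafficking, 4 of 19 genes were lower and 1 higher, and 8 and 3 at an unadjusted p under 0.05. The higher gene, Slc9a3r1, encodes NHERF1, a scaffold that binds RAMP3 and holds the receptor at the membrane. It gave 44.9, 44.4 and 47.6 on the Arid1a f/f arrays and 60.7, 86.0 and 70.9 on the Arid1a d/d arrays. Like Ramp3, it was higher on each Arid1a d/d array and highest on replicate 2, with a log2 difference of 0.65 (standard error 0.13, adjusted p = 0.0305) and 0.64 to 0.73 over its 3 probe sets, but it was past the threshold in only 1 of 6 fits that left out an array, the one without Arid1a d/d replicate 1. Nsf, whose product recycles the receptor through RAMP3, had a log2 difference of 0.089 (adjusted p = 0.792), and -0.043 without Arid1a f/f replicate 2.

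The 4 lower genes were Nos3, the endothelial nitric oxide synthase through which adrenomedullin relaxes vessels (15.5 ± 1.28 to 7.81 ± 0.544, SD, n = 3 each, log2 difference -0.99, adjusted p = 0.00332), Arrb1, which encodes beta-arrestin 1 (49.7 ± 6.31 to 23.5 ± 4.14, log2 difference -1.09, adjusted p = 0.00864), and the adenylyl cyclase genes Adcy4 (10.1 ± 1.09 to 5.27 ± 0.346, log2 difference -0.93, adjusted p = 0.00521) and Adcy7 (51.3 ± 7.11 to 30.5 ± 5.21, log2 difference -0.76, adjusted p = 0.0269). Nos3, Arrb1 and Adcy4 were called whichever array was left out, and Adcy7 only without Arid1a d/d replicate 3. Nos3 and the endothelial markers, at a median of -0.94, were lower by similar amounts, and their part in its value was not tested.

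Among regulators of transcription, 2 of 8 genes were lower and 0 higher in limma, with the same counts at an unadjusted p under 0.05. Esr1, the estrogen receptor gene, had 686.8 ± 42.6 and 501.6 ± 36.3 (SD, n = 3 each) on its brightest probe set, a log2 difference of -0.45 (adjusted p = 0.0441). It lost its call without any 1 of the 6 arrays, another probe set had 0.51, and the mean of its probe sets was 0.087 (adjusted p = 0.772), so no direction is given for it. Epas1, the gene of hypoxia-inducible factor 2 alpha, which is abundant in endothelium, fell from 303.7 ± 20.6 to 191.8 ± 23.2 (log2 difference -0.67, adjusted p = 0.0181) with -0.16 on its other probe set, and of the fits that left out an array it was called only in that without Arid1a d/d replicate 1. Pgr, the progesterone receptor gene, whose locus carries Cre in Arid1a d/d mice, had a log2 difference of 0.28 (adjusted p = 0.346).

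Adm is a target of hypoxia-inducible factors, and 12 oxygen-responsive genes were read for that reason. In limma 1 was lower and 0 higher, and at an unadjusted p under 0.05 the counts were 4 and 0. The lower gene was Ndrg1, a stress-responsive gene (111.0 ± 24.4 to 44.8 ± 6.70, SD, n = 3 each, log2 difference -1.29, adjusted p = 0.00824), with -0.14 to -1.52 over its probe sets and a call in each fit without an array. Vegfa, the endothelial growth factor gene, had a log2 difference of 0.042 (adjusted p = 0.942), and -0.16 without Arid1a f/f replicate 1. The median of the list was 0.021, beside the -0.019 of all genes and the 0.23 of the brightest probe set of Adm.

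**Figure D4:**
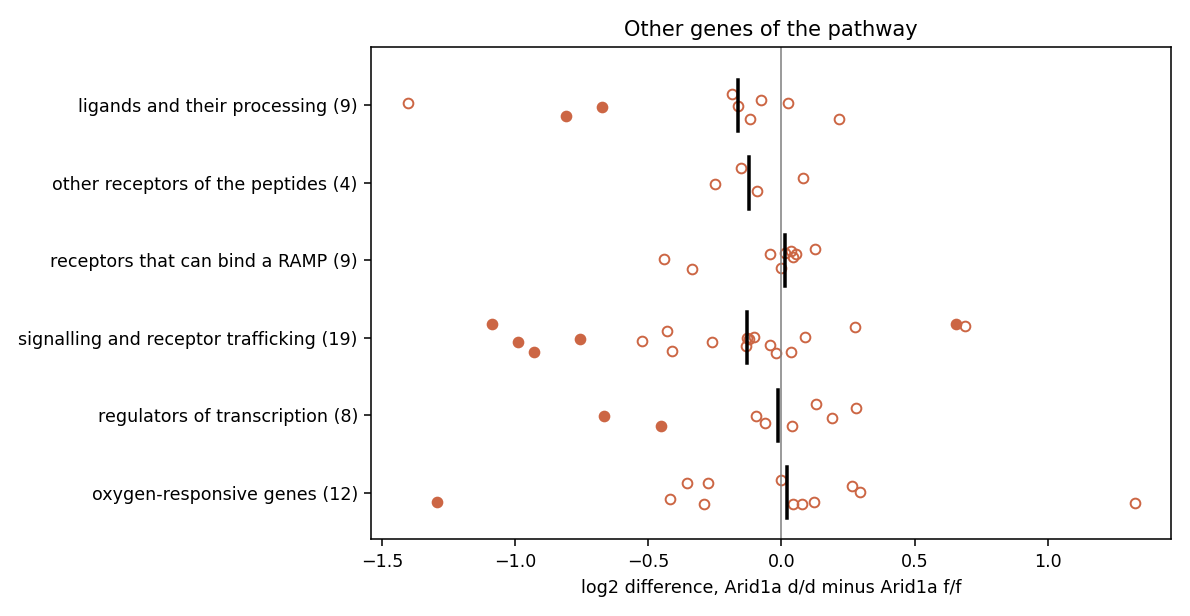
Log2 difference, Arid1a d/d minus Arid1a f/f, of 61 other genes of the pathway in 6 lists, with the number measured after each name. Circles are the brightest probe set of each gene, filled where limma gave an adjusted p under 0.05, and vertical lines are list medians. Of the filled circles, 1 lies to the right of 0 (Slc9a3r1) and 9 to the left.

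The genes whose profiles were most like those of the members were found over the 12084 other genes whose mean intensity was at least the median of probe set means, as the smallest root mean square difference of log2 intensities centred on their mean over the 6 arrays. For Ramp3 they were Tmem45b (0.18), P2ry14 (0.30) and Padi1 (0.41). Tmem45b gave 9.06, 20.0 and 10.4 on the Arid1a f/f arrays and 103.9, 135.1 and 77.6 on the Arid1a d/d arrays, with replicate 2 highest in both genotypes, as for Ramp3. For Ramp1 they were Cyp27a1 (0.15), Mme (0.17) and Scara5 (0.18). Mme, which encodes neprilysin, an enzyme that degrades small peptides and is also in the pathway lists, gave 309, 237 and 338 against 201.9, 53.4 and 124.0. Its Arid1a d/d arrays stood in the same order as those of Ramp1, replicate 2 lowest, and its own log2 difference of -1.40 did not pass the test (adjusted p = 0.0923).

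The members that differed less had closer neighbours, which follows from a measure that is not scaled by how much a gene varies. For Ramp2 they were Recql5 (0.031), Cadm1 (0.046) and Gdap2 (0.047), for Calcrl Prkd3 (0.031), Ube2w (0.038) and Erbin (0.040), and for Adm Golm2 (0.029), Cul3 (0.032) and Sec63 (0.034). Golm2 gave 74.8, 85.7 and 85.3 on the Arid1a f/f arrays and 103.5, 91.0 and 91.0 on the Arid1a d/d arrays. Its lowest and highest arrays were those of the brighter, less specific probe set of Adm, on which the neighbours of Adm rest. The other Adm probe set was lowest on Arid1a d/d replicate 2. These likenesses contain the difference between the genotypes as well as the spread within each, over 6 arrays.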

How the data were processed

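Uterine RNA of 6 samples was measured on 1 array each, 3 per genotype, grouped by the labels. The deposited intensity values came from RMA with global scaling by the authors, and the submitters' processing notes name RMA without a version. The methods give a common trimmed mean target for the arrays. The plain mean intensity of an array was 32.0 to 33.2, below that target, and the sources used here do not give how the linear table was rescaled. Its 45037 probe sets carry no detection calls. Log2 was taken and the fit made with no filter, and only the search for alike genes left out those below the median mean intensity. Of the probe sets, 34945 name 1 gene, and 34741 of them matched a RefSeq gene of GRCm38.p6 by Entrez ID. A gene was represented by its brightest probe set. The genotype comparison was fitted in limma 3.58.1 under R 4.3.3 with lmFit and eBayes, two-sided, with p-values adjusted by Benjamini-Hochberg over the whole table, and was tested on simulated data. The number of arrays limits the precision.

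The members and all lists were chosen with earlier results of these data known. Named genes were all member probe sets, pathway genes past the test, 10 fixed pathway genes, up to 2 brightest called genes of each marker list, and the 3 genes most like each member. Nsf, Cldn3, Cldn4, Cldn5, Lyve1, Prox1, Thy1 and Itgax fall outside these choices and were picked once their values had been seen. The comparison was repeated with a replicate block, with quantile-normalized or median-centred values, without dim probe sets, with trended and robust eBayes, with the methods' t-test, with other choices of probe set, and without each array in turn.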

Additional observations from a re-analysis of the deposited data

How the results depend on the processing

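The log2 differences of Ramp3, Ramp2, Calcrl and Ramp1 moved by less than the spread between arrays under quantile normalization and median centring. In this balanced design a replicate block, a filter on dim probe sets and trend and robust options cannot change a log2 difference. They are therefore no check of it. Adm had 0.036 without probe sets that can bind several transcripts and 0.13 as the mean of its probe sets, and Ramp1 -0.81 as the mean of its probe sets. Without 1 array at a time, Adm ranged from 0.18 to 0.27, Calcrl from -0.03 to 0.14, Ramp1 from -1.87 to -1.11, Ramp2 from -0.47 to -0.29 and Ramp3 from 2.92 to 3.58. The mean of the probe sets of Esr1 reversed its sign, to 0.087. Of genes that did not pass, the sign turned without single arrays for Ackr3 (-0.33 to 0.16), Nsf (-0.043 to 0.17) and Vegfa (-0.16 to 0.18). Over all probe sets, limma called 1090 higher and 1057 lower, the methods' t-test 3386 and 3316 at an unadjusted p under 0.05 and 0 and 0 after Benjamini-Hochberg, and leaving out 1 array 241 to 941 and 337 to 878, the lowest without Arid1a f/f replicate 2. In the pathway lists, 1 gene was higher in the main comparison, 2 with the replicate block, 4 by the unadjusted t-test and 0 to 1 without an array, and 9 were lower, against 5 to 8 without an array. Epithelial markers called higher numbered 2, against 1 as the mean of probe sets and 0 to 3 without an array, and endothelial markers called lower 13, against 6 to 10. By the t-test with Benjamini-Hochberg all 4 of these counts were 0. Deviations of samples with the same replicate number had correlations of -0.009, 0.062 and 0.198, and those of samples with different numbers -0.168 to 0.093. These few values cannot show whether the numbers mark a pairing. The replicate block gave 1126 higher and 1039 lower probe sets. For single genes and the other marker lists, 531 alternative values kept their direction, or for counts stayed within 1.5 times, and their side of the threshold, 80 kept the direction and lost the threshold, 3 passed it, and 21 counts moved. Intensities near the median of all values limit what can be said of dim probe sets.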

Other observations

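Ramp2 has 2 further probe sets that the annotation assigns to it together with Vps25, and they were left out of the values above. The brighter gave 77.6, 74.5 and 73.5 on the Arid1a f/f arrays and 71.5, 78.2 and 68.4 on the Arid1a d/d arrays, a log2 difference of -0.050 (adjusted p = 0.858, limma), and the other gave 23.6, 23.2 and 20.0 against 23.6, 20.1 and 16.1, a log2 difference of -0.18 (adjusted p = 0.615, limma). In both the genotypes overlapped, unlike on the probe set that names Ramp2 alone, and how much of their signal comes from either gene is not known here.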
